A study of Stylophora pistillata with 6 samples.

Results

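ETS family transcription factors of the reef coral *Stylophora pistillata* were compared between day and night in 4 gene models, of 25769 in the count table. They are Spis18634, named ETS1B, Spis5906 and Spis18633.t1, both named ETS2, and Spis6216.t1, named SPDEF. Members were selected on a measured value: each stands in the study's own named list, that of gene models past an adjusted p of 0.05 in its DESeq2 comparison of these same libraries. The day–night difference of the 4 gene models is therefore given as a description, with no test. By its fold change Spis18633.t1 was the member closest to no difference. Gene models outside that list carry no name in the sources used here, so no ETS gene model just past the threshold can be set beside it. The names are best BLAST hits in other animals, and the coral coding sequences were not analysed here, so the ETS label itself was not tested against sequence.

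The 3 day samples were frozen when 1 h of the light phase was left, and the 3 night samples when 1 h of the dark phase was left. All 6 were microcolonies, that is, branch tips cut from 3 syngenic parent colonies, which carry dinoflagellate symbionts. After cutting, the tips had 10 days to recover before they were used. They were kept at 25 °C and a salinity of 38. They received 175 µmol photons per square metre and second with a light phase of 12 h and a dark phase of equal length. Poly(A) RNA was sequenced, and reads were counted on the coding sequence of each coral gene model. The day libraries held 1552480 to 6619275 such reads and the night libraries 1916270 to 3062255. Nothing ties a library to a parent colony, so the spread given below is that between these samples and may be technical in part. As a check of calcifying tissue, a gene model named Galaxin in the study's list (Spis11963), after a skeletal matrix protein, had 99.5, 129.5 and 99.5 reads per 1000000 (CPM) in day samples, against 62.5, 68.4 and 54.8 CPM in night samples. CAH2 (Spis12076) is a carbonic anhydrase that the study ties to both photosynthesis and calcification, so it does not mark calcifying tissue alone. It had 634, 523 and 607 CPM in day samples, against 178.7, 176.5 and 258 CPM in night samples. Both were thus present in all 6 libraries. Both were also called higher by day in edgeR (0.256% of all gene models were), 1.76-fold for Galaxin (adjusted p = 0.028) and 2.88-fold for CAH2 (adjusted p = 0.00011), having been chosen on the same contrast as the ETS gene models. These folds lie near the 1.83-fold of Spis18633.t1 and the 2.51-fold of Spis6216.t1, and their part in the ETS values was not tested. In whole tissue, fewer cells of a type and less RNA per cell cannot be told apart.

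ETS factors share a winged helix-turn-helix domain that binds a short purine-rich DNA core. In vertebrates and flies, several of them receive the Ras–ERK signal: ERK phosphorylates ETS1 and ETS2 beside their pointed domain, and their fly relative Pointed acts downstream of receptor tyrosine kinases. SPDEF carries both a pointed and an ETS domain and is known in mice for the maturation of secretory epithelial cells such as goblet cells. In the sea anemone *Nematostella*, ETS genes have been studied as part of MEK–ERK signalling in the embryo.

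All 4 ETS gene models were higher in day than in night samples. Spis5906 and Spis18634 stood 6.43-fold and 7.04-fold higher by day, while Spis6216.t1 stood 2.51-fold and Spis18633.t1 1.83-fold higher. In each of the 4, the 3 day libraries lay above the 3 night libraries, a pattern that 5.05% of all 24180 gene models with a read showed. Since the study chose the members on this contrast, nothing is read from that count. The median log2 fold change of the 4 members, day minus night, was 2.01, against 0.0046 over all gene models tested.

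**Figure D1:**
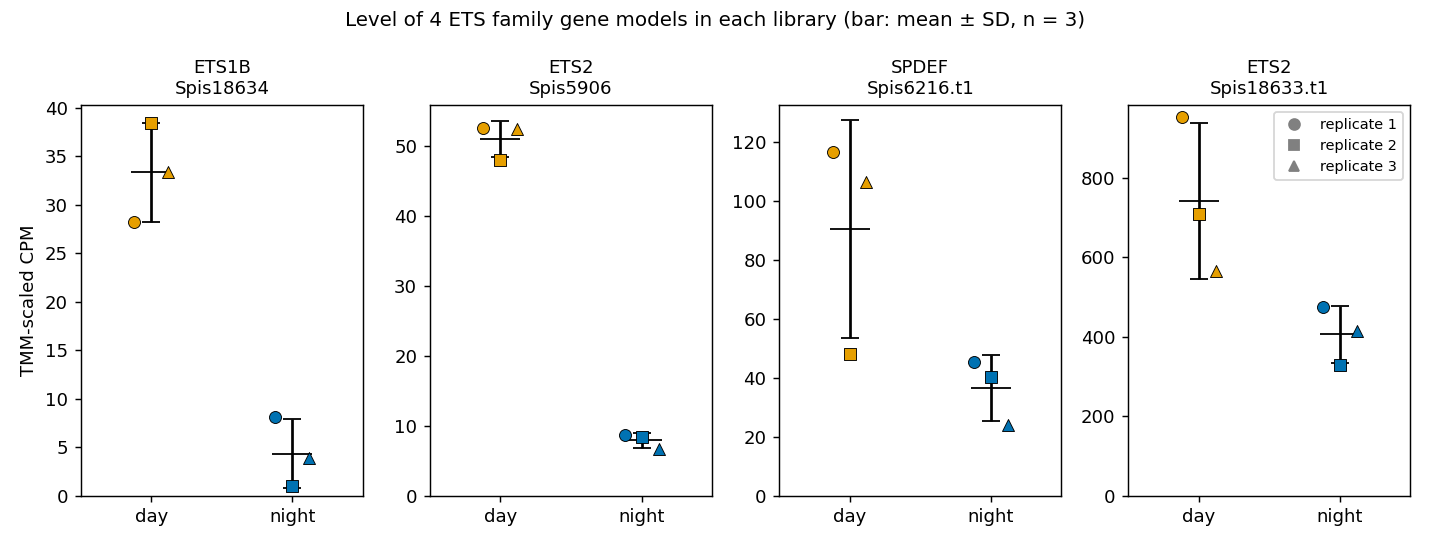
TMM-scaled CPM of each ETS gene model (vertical axis, linear, from 0) in the 3 day and 3 night libraries, with symbols for replicate numbers and bars for the mean and SD (n = 3 per group). Day and night are far apart for Spis18634 and Spis5906, while the lowest day value of Spis6216.t1 (48.1 CPM) sits just above its highest night value (45.3 CPM).

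Spis5906 (ETS2) was the steadiest member. It had 147, 75 and 356 reads in day samples, against 27, 16 and 17 reads in night samples. Per 1000000 reads of the library after TMM scaling, a correction for composition, these were 52.6, 48.1 and 52.4 CPM by day and 8.74, 8.36 and 6.66 CPM by night. The day values lay within a narrow band, and the lowest of them was 5.50 times the highest night value. The mean was 51.0 ± 2.55 CPM by day and 7.92 ± 1.11 CPM by night (SD, n = 3 each), a log2 fold change of 2.68 (standard error, SE, 0.25). Its spread was within what counting alone gives: the coefficient of variation was 5.00% by day and 14.0% by night, where the mean read number carries a counting error of 7.20% and 22.4%. Of all gene models, 18.8% had a lower dispersion as edgeR estimated it, against 63.0% for Spis6216.t1, 53.3% for Spis18634 and 29.7% for Spis18633.t1.

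Spis18634 (ETS1B) had the largest fold change of the 4 and the fewest reads. It had 79, 60 and 227 reads in day samples, against 25, 2 and 10 reads in night samples. The corresponding levels were 28.3, 38.5 and 33.4 CPM by day and 8.09, 1.04 and 3.92 CPM by night. Day samples were close to one another, whereas the highest and lowest night samples differed several-fold. The 2 reads of night replicate 2 allow 0.127 to 3.77 CPM (95% exact Poisson interval, counting error only), which lies below the interval of night replicate 1, 5.24 to 11.9 CPM. The mean was 33.4 ± 5.09 CPM by day and 4.35 ± 3.54 CPM by night (SD, n = 3 each), with a log2 fold change of 2.82 (SE 0.40). Leaving out night replicate 1 gave 3.64 and leaving out night replicate 2 gave 2.44, and it lay between these values when any other library was left out.

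Spis6216.t1 (SPDEF) was the most variable member by day. It had 326, 75 and 724 reads in day samples, against 140, 77 and 61 reads in night samples, or 117, 48.1 and 107 CPM by day and 45.3, 40.2 and 23.9 CPM by night. Day replicates 1 and 3 lay well above all night samples, but day replicate 2, the shallowest library, stood at only 1.06 times the highest night sample. The day coefficient of variation of 40.9% was far above the counting error of 5.16%. The mean was 90.4 ± 37.0 CPM by day and 36.5 ± 11.2 CPM by night (SD, n = 3 each), with a log2 fold change of 1.33 (SE 0.38). Without day replicate 2 the log2 fold change was 1.61.

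Spis18633.t1 (ETS2) was one of the most deeply covered gene models, with more reads over the 6 libraries than 99.4% of those tested. It had 2662, 1106 and 3839 reads in day samples, against 1463, 630 and 1057 reads in night samples. The levels were 952, 709 and 565 CPM by day and 474, 329 and 414 CPM by night. The groups did not overlap, and the lowest day sample was 1.19 times the highest night sample. With a counting error of 1.99% by day and 3.09% by night, depth did not limit this value, and the coefficients of variation of 26.4% and 17.9% were differences between samples. The mean was 742 ± 196 CPM by day and 405.5 ± 72.6 CPM by night (SD, n = 3 each), with a log2 fold change of 0.87 (SE 0.24). CPM does not correct for transcript length, and no lengths were used, so the levels of the 4 gene models were not ranked against one another.

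In edgeR's quasi-likelihood fit over 24180 gene models, 2 of the 4 members (Spis18634 and Spis5906) passed an adjusted p of 0.05, both higher by day, where 0.256% of all gene models did so. With the replicate number as a block 4 of 4 passed (0.864% of all gene models, higher by day), and with DESeq2, the tool that chose them, 4 of 4 (0.265%). These counts restate the choice of the members and are not evidence of their direction. Without day replicate 2 the edgeR fit without a block also counted Spis6216.t1, and without day replicate 3 it also counted Spis18633.t1, 3 of 4 in each case.

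The labels give day and night samples the same replicate numbers but state no pairing. Deviations from the group means correlated weakly between same-numbered libraries (r = 0.24, 0.19 and 0.37 over 14262 gene models). Each member was therefore also read within a number. Replicate 2 is the shallowest library of each group, and the part of depth in these correlations was not tested. Spis5906 gave nearly the same ratio each time, at 6.02, 5.75 and 7.87 times its night level in replicates 1, 2 and 3. Spis18633.t1 stood at 2.01, 2.16 and 1.37 times its night level. Spis18634 stood at 3.49, 36.8 and 8.53 times, the middle value resting on the 2 night reads (95% exact interval 9.76 to 311 from counting alone). For Spis6216.t1 the ratios were 2.57, 1.2 and 4.46, and the counting interval of replicate 2, 0.858 to 1.67, included 1. Over the 3 numbers the log2 ratio averaged 2.70 ± 0.24 for Spis5906 and 0.85 ± 0.36 for Spis18633.t1. It averaged 3.37 ± 1.72 for Spis18634 and 1.26 ± 0.95 for Spis6216.t1 (SD, n = 3 replicate numbers each).

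**Figure D2:**
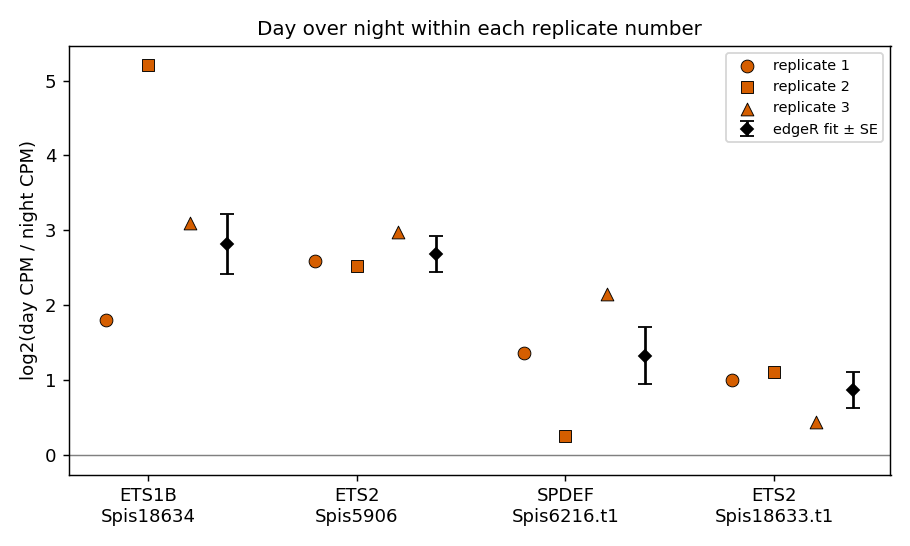
The log2 ratio of day CPM over night CPM within each replicate number (vertical axis) for the 4 ETS gene models, with the edgeR estimate without a block and its standard error as black diamonds. All ratios are above 0, those of Spis5906 lie close together, and those of Spis18634 (1.80 to 5.20) and Spis6216.t1 (0.26 to 2.16) are spread widely.

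In edgeR's blocked fit, the spread of Spis6216.t1 across replicate numbers was not carried into its standard error. With the block its standard error was 0.19, against 0.38 without it, although its residual deviance hardly moved, at 14.2 on 2 degrees of freedom against 14.6 on 4. That blocked residual deviance was higher than those of 99.5% of gene models. Spis18634 was alike, with a blocked residual deviance of 11.7 and a standard error of 0.29, against 0.40 without the block. In the blocked fit every gene model received the same infinite prior degrees of freedom, so that its own residual deviance did not enter the quasi-likelihood dispersion. The count of 4 from edgeR with the block thus takes no account of how unevenly Spis6216.t1 behaved between replicate numbers. Spis5906, with a blocked residual deviance of 0.519, and Spis18633.t1, with 2.17, did not stand apart in this way. DESeq2 with the same block also counted 4. There the standard error was 0.3225 for Spis6216.t1 (0.3212 without the block) and 0.83 for Spis18634 (0.43 without it).

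Spis18633.t1 and Spis18634 carry consecutive numbers in the annotation and were looked at together. Summed, the pair had 2741, 1166 and 4066 reads in day samples, against 1488, 632 and 1067 reads in night samples. This was 981, 747 and 598 CPM by day and 482, 330 and 418 CPM by night. The sum averaged 775 ± 193 CPM by day and 410 ± 76.1 CPM by night (SD, n = 3 each), with a log2 fold change of 0.92 (SE 0.24), close to that of Spis18633.t1 alone. Of the difference between the day and night means of the pair, 92.1% lay on Spis18633.t1 and 7.94% on Spis18634. The day–night difference of the pair in reads was thus mostly that of its ETS2-named model, and the larger fold change that of its ETS1B-named one.

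The pair divided its reads differently by day and by night. This follows from the log2 fold changes of its models, 2.82 for Spis18634 and 0.87 for Spis18633.t1. Both were chosen on this contrast, so the share is given as a description, with no test. Spis18634 took 2.88%, 5.15% and 5.58% of the reads of the pair in day samples, against 1.68%, 0.317% and 0.937% in night samples. The lowest day share lay above the highest night share, and the 95% exact binomial intervals of these shares, 2.29 to 3.58% in day replicate 1 and 1.09 to 2.47% in night replicate 1, overlapped slightly. The mean share was 4.54 ± 1.45% by day and 0.978 ± 0.683% by night (SD, n = 3 each), and 0.627% by night without night replicate 1. The highest sum was in day replicate 1, which had the lowest day share, and the lowest sum was in night replicate 2, which had the lowest share of all. Both names point to closely related proteins, and how reads fitting more than 1 gene model were assigned is not given in the sources used here. Reads from stretches that the pair shares, if any, cannot be told apart, and whether the numbers stand for 1 gene or 2 was not tested.

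**Figure D3:**
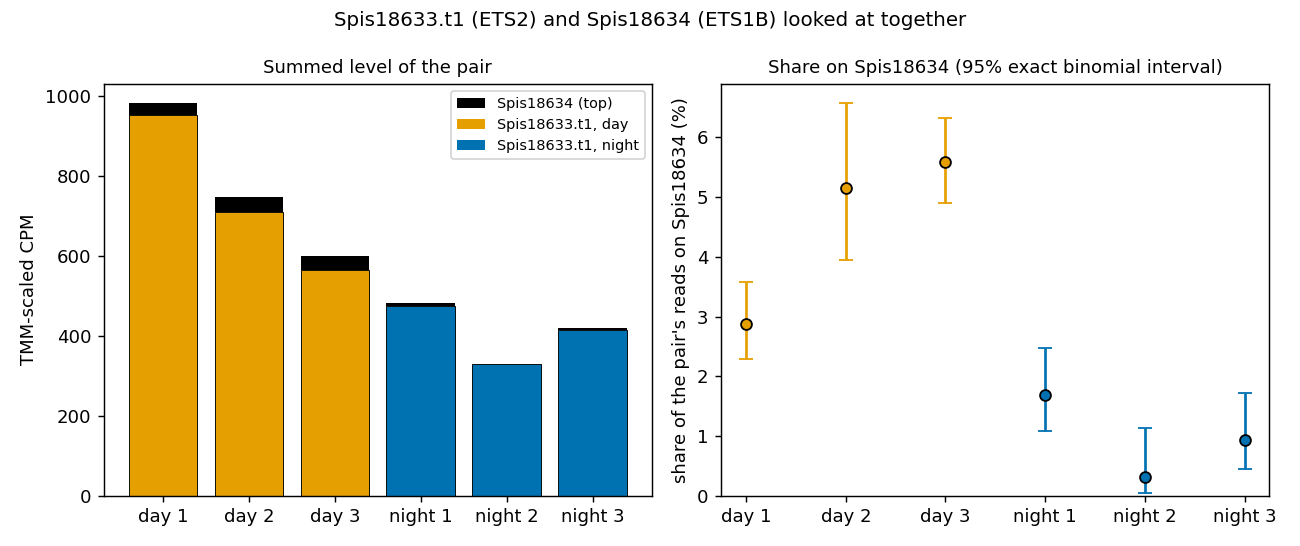
Left, TMM-scaled CPM of Spis18633.t1 with Spis18634 stacked on top in black, per library; right, the share of the summed reads that fell on Spis18634, in percent, with 95% exact binomial intervals (counting error only). The sum is highest in day replicate 1 (981 CPM), while the share on Spis18634 is highest in day replicate 3 (5.58%) and lowest in night replicate 2 (0.317%).

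Gene models numbered within 3 of a member were not chosen by day–night difference and could be tested. None of the 18 passed in edgeR without a block (0 called in either direction, against 0.666% of all gene models), and 2 had an unadjusted p under 0.05. DESeq2 and the blocked fits also called 0 of the 18, with 0 to 4 at an unadjusted p under 0.05, and limma-voom, run after a filter that left 12 of them, called 0, with 1 at an unadjusted p under 0.05. Their log2 fold changes ran from -2.16 to 0.87, with 9 above and 9 below 0. The lowest was that of Spis6219, at 2 reads by day and 8 by night (SE 1.185). With so small a share of all gene models called, 0 of 18 is no result about these neighbours. Spis18632.t1, the number before the pair, had 54.4, 39.1 and 48.3 CPM in day samples, against 42.4, 36.6 and 34.9 CPM in night samples, and the groups overlapped. Spis18635, the number after it, had 3, 1 and 2 reads by day and 8, 3 and 0 by night, too few to show a difference. Spis18637 was lower in all 3 day samples, with 29.0, 32.7 and 27.7 CPM by day and 43.0, 42.3 and 41.1 CPM by night, but did not pass (log2 fold change -0.51, SE 0.21, adjusted p = 0.70 from edgeR).

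Next to Spis5906, Spis5905 had 18.6, 10.9 and 11.3 CPM in day samples, against 12.3, 3.66 and 8.61 CPM in night samples, with overlapping groups. Spis5907 had 5.01, 5.77 and 4.41 CPM by day and 3.88, 3.13 and 1.96 CPM by night, at no more than 30 reads in any library. It did not pass (log2 fold change 0.71, SE 0.48, adjusted p = 1.0 from edgeR). On either side of Spis6216.t1, Spis6215 had at most 16 reads in a library, and Spis6217 had 42.6, 38.5 and 34.4 CPM by day and 34.0, 42.8 and 37.2 CPM by night, at a log2 fold change of 0.02. Of the 18, 2 had all day libraries above all night libraries (5.05% of all gene models) and 2 had them all below (5.04%). The files give no positions, so whether consecutive numbers lie side by side in the genome is not given here.

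**Figure D4:**
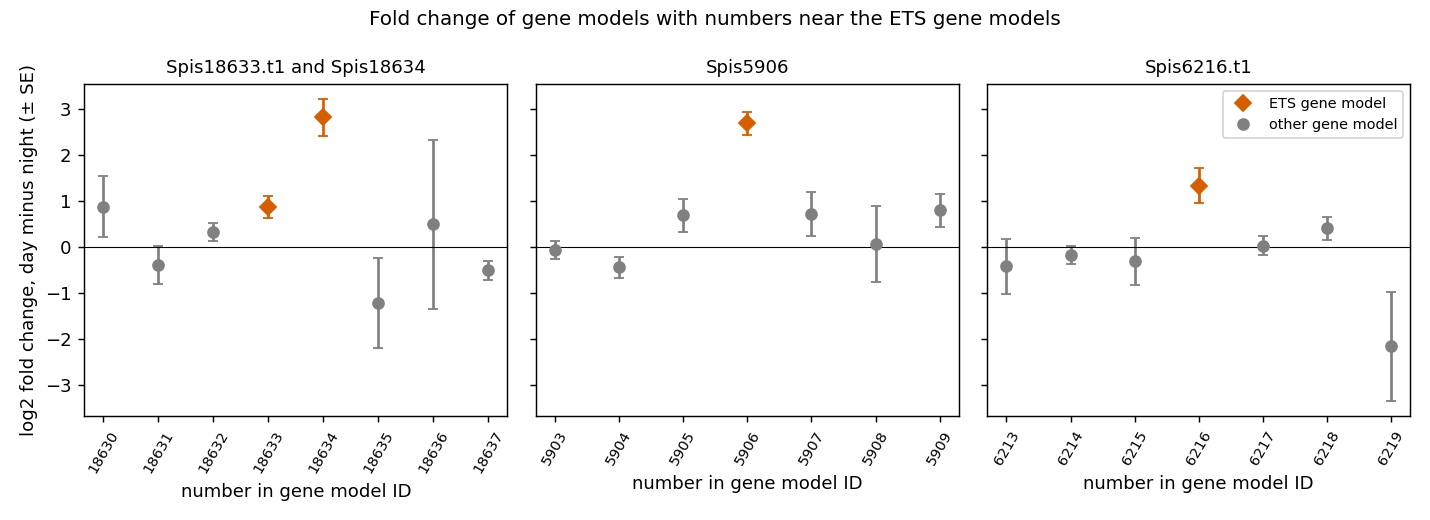
Log2 fold change, day minus night, with its standard error from edgeR (vertical axis) for the ETS gene models (diamonds) and for gene models with numbers within 3 of them (circles), by number in the ID. The ETS gene models stand at 0.87 to 2.82, and the 18 others at -2.16 to 0.87. None of the 18 passed in edgeR without a block, and neither did Spis18633.t1 or Spis6216.t1.

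The members differed in which samples of a group stood high. As deviations from the group mean of log2(CPM + 1), Spis5906 and Spis6216.t1 were both low in day replicate 2 and night replicate 3, with a Pearson r of 0.83 over the 6 libraries. The pair had an r of 0.47 with each other, and the other combinations lay between -0.10 and 0.12. These are descriptions over 6 libraries that share depth and handling. The deviations of Spis5906 itself were small, from -0.21 to 0.14, and those of Spis6216.t1 ran from -0.80 to 0.46. The spread of Spis5906 was within its counting error, at 5.00% by day against 7.20%, and 14.0% by night against 22.4%. Its r with Spis6216.t1 therefore cannot be told from counting noise.

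Across the 125 other gene models of the study's named list, the patterns most like each member were sought by Pearson r of log2(CPM + 1) over the 6 libraries. All were chosen on the same contrast, so high values come with the choice. Spis5906 was closest to HEY (Spis21953), a repressor downstream of Notch, at r = 0.9996, and within groups the deviations of both also ran together (r = 0.96). HEY had 763.5, 710.1 and 810.5 CPM in day samples, against 61.2, 54.8 and 45.0 CPM in night samples, low in the same day and night replicates as Spis5906. Next came the nuclear receptor COT2 (Spis14503) and LONF3 (Spis16239), a RING finger protein related to LON proteases, both at r = 0.99. Within groups the r was 0.93 for LONF3 but 0.15 for COT2. The spread of Spis5906 within groups was no larger than its counting error. These within-group values, and that of HEY, therefore cannot separate shared variation from counting noise.

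Spis6216.t1 was closest to NF2L1 (Spis2715), a basic leucine zipper factor of proteasome and redox genes in mammals, at r = 0.97 (0.98 within groups). NF2L1 had 341, 260.2 and 351 CPM in day samples, against 208, 202 and 174 CPM in night samples, with day replicate 2 lowest by day and night replicate 3 lowest by night, as in Spis6216.t1. PHC1 (Spis16576), a Polycomb protein, followed at r = 0.95, and then v1g240773 (Spis21061), a name that gives no function, at r = 0.94. Spis18634 was closest to GYS (Spis3506.t1), a glycogen synthase, at r = 0.98, with KLH12 (Spis18160) and NPT2B (Spis12237), a sodium-phosphate cotransporter, at r = 0.96 each. Spis18633.t1 was closest to BIOC (Spis11104) at r = 0.96, then PDIA4 (Spis14927), a disulfide isomerase, and HMCN1 (Spis23455), a hemicentin, at r = 0.94 each, though HMCN1 had 0 to 1.96 CPM by night. Thus, over the 6 libraries, the nearest pattern was a different one for each of the 4, also for the pair. With 1 library left out, 5 to 10 of the 12 gene models named as most alike were named again. Which gene model comes nearest thus depends on single libraries.

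Other transcription factors of the same named list give the setting of these fold changes. Of 13 such gene models, 11 were called higher by day (0.256% of all gene models), HLF (Spis1683) was called lower (0.409%) and NF2L1 did not pass in edgeR. The list was likewise chosen on these libraries. Its median log2 fold change was 1.51, against 2.01 for the 4 ETS gene models, and no test of the difference was made. HEY (Spis21953) led at 3.82, and Spis18634 and Spis5906 stood beside PAX3 (Spis375) at 2.72, PAX3B (Spis374) at 2.69, EGR1B (Spis4141) at 2.65 and FOS (Spis18079) at 2.57. Spis6216.t1 lay between CLOCK (Spis3527) at 1.43 and CREM (Spis4729) at 1.17, and Spis18633.t1 between ZFP26 (Spis11066) at 1.07 and NF2L1 at 0.71.

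EGR1B and FOS, with the kinase SIK1 (Spis17316), are immediate early genes in mammals, where growth factors induce the first pair through ERK. All 3 were called higher by day, as were 0.256% of all gene models, and all 3 were chosen on this contrast, so the count is no independent evidence of a direction. FOS had 40.4, 89.1 and 65.6 CPM in day samples, against 10.7, 9.92 and 11.8 CPM in night samples, and its day samples differed more than those of Spis5906. EGR1B had 167, 338 and 256 CPM by day and 30.1, 45.4 and 45.8 CPM by night.

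Names grouped under Ras and ERK moved both ways, although for LAR no tie to either is given here. TOB2 (Spis18899), whose mammalian relative TOB1 is phosphorylated by ERK and restrains proliferation, was called higher by day, with 173.5, 163 and 184.5 CPM in day samples, against 86.4, 98.7 and 108 CPM in night samples. RERG (Spis10567), a small GTPase of the Ras superfamily that restrains growth in human cells, was called lower by day, with 3.94, 1.92 and 2.94 CPM by day and 21.4, 14.6 and 12.9 CPM by night. LAR (Spis17942), a receptor tyrosine phosphatase, was also called lower, with 380, 347 and 350.4 CPM by day and 900.0, 738 and 529 CPM by night. Of all gene models, 0.256% were called higher by day and 0.409% lower. These 3 were chosen on this contrast, so the calls are no independent evidence of a direction. They are names of the study's list that were grouped by hand, and they stand for no wider pathway.

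In mammals several metalloprotease genes are targets of ETS and AP-1 factors, and 3 names of matrix remodelling stood in the study's list. MMP19 (Spis5859), a matrix metalloprotease, had 17.2, 22.4 and 37.8 CPM in day samples, against 7.77, 8.88 and 11.8 CPM in night samples. TIMP4 (Spis6044), a metalloprotease inhibitor, had a log2 fold change of 1.15 (SE 0.26), and SPD2B (Spis13911), an adaptor of podosomes in mammals, had 1.04 (SE 0.23). All 3 were called higher by day, as were 0.256% of all gene models. They were grouped by hand from the same chosen list, so the count is no independent evidence of a direction. Whether an ETS protein acts on any of these genes was not measured.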

How the data were processed

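Coral RNA was counted in 3 day and 3 night libraries. SOLiD reads were aligned by the authors as single ends with Bowtie (version 1.2.3 per the submitters' notes), the target being 1 coding sequence per gene model, the longest, and an in-house Python script made the counts. The deposited counts are whole numbers, not normalized and not pooled.

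In the table the row of an ID that starts longer IDs also holds their reads, which concerns 2371 gene models and 0 of the 4 ETS ones. These reads were subtracted, which left 0 values below 0 and the mapped read numbers that the study lists, in 6 of 6 libraries. The member reads are as deposited, but library totals and scaling are not.

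Gene models with a read (24180) were fitted in R 4.3.3 with edgeR 4.0.16: TMM factors (0.974 to 1.027), robust estimateDisp, glmQLFit and glmQLFTest, day minus night, two-sided, with Benjamini-Hochberg adjustment over all of them. A standard error is the log2 fold change divided by the square root of F. Intervals cover counting error only. At 10 reads the counting error is 31.6%. Over 14262 gene models, deviations from the group means correlated at 0.24, 0.19 and 0.37 for day with night of one number, and at -0.28 to 0.10 otherwise. The replicate numbers come from the labels, which state no pairing, and these correlations are why libraries were read within a number.

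Alternatives were DESeq2 1.42.0, limma-voom after filterByExpr (limma 3.58.1), RLE factors, library totals alone, 2 filters, the replicate block, the values as deposited and each library left out. Other pseudocounts and leaving out libraries for the likeness of patterns were added after the data were seen. The scripts were tested on simulated data. Members, lists, and the rule for named genes (the members, their numbered neighbours, 3 named gene models most like each member, and the lists described) were chosen with earlier results of these data known. Python 3.11.15, pandas 2.3.3, scipy 1.17.1 and matplotlib 3.10.9 made tables and figures.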

Additional observations from a re-analysis of the deposited data

How the results depend on the processing

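The 4 ETS gene models were higher by day under every alternative run, and none of the neighbouring numbers tested was called in any (18 of 18 tested, but 17 with a minimum of 10 reads and 12 after filterByExpr, in edgeR or limma-voom). The count of members past an adjusted p of 0.05 was 4 in DESeq2 and 4 with the replicate block in edgeR or in DESeq2. It was 2 to 3 when 1 library was left out. These counts restate the choice of the members, made with DESeq2 on this contrast. Over 24180 gene models the count of 161 became 149 in DESeq2, 128 in DESeq2 with the replicate block and 409 with it in edgeR. It was 79 in limma-voom after filterByExpr (123 in edgeR after the same filter, which tests fewer gene models). With 1 library left out it was 94 to 233 (97 without night replicate 1, 94 without night replicate 2). Outside of leaving out libraries, the log2 fold change ran from 2.81 to 3.18 for Spis18634, 0.85 to 0.89 for Spis18633.t1, 2.67 to 2.70 for Spis5906, 1.28 to 1.34 for Spis6216.t1 and 0.91 to 0.94 for the summed pair. With 1 library left out it ran from 2.58 to 2.77 for Spis5906, 1.11 to 1.61 for Spis6216.t1, 0.65 to 1.04 for Spis18633.t1 and 0.71 to 1.08 for the pair. The mean share of the reads of the pair on Spis18634 was 4.01 to 5.36% by day and 0.627 to 1.31% by night. Of the 12 gene models named as most alike, 5 to 10 were named again with 1 library left out, so these names depend on single libraries. The 37 night reads of Spis18634 and 60 of Spis5906 limit how well their night levels are known.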
